A study of Homo sapiens with 12 samples.

Results

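The p38 to MK2 pathway was described by 10 genes, taken by symbol from the 56609 gene symbols of the count table. They were the kinases that activate p38 (MAP2K3 and MAP2K6), the 4 p38 kinases (MAPK14, MAPK11, MAPK12 and MAPK13), the 3 MAPK-activated protein kinases (MAPKAPK2, MAPKAPK3 and MAPKAPK5) and HSPB1, a heat shock protein that MK2 phosphorylates. All 10 passed the filter on low counts, which kept 21698 genes for testing. RNA was sequenced from A375, an established human melanoma cell line, with 3 libraries in each of 4 groups: wild-type cells with DMSO, wild-type cells with 500 nM JQ1, MAPKAPK2 knockout cells with DMSO, and MAPKAPK2 knockout cells with 500 nM JQ1, all for 48 h. The knockout was made with CRISPR/Cas9, and whether it was a single clone or a pool, and whether wild-type cells carried a control guide, is not given in the sources used here. The titles call the groups without JQ1 untreated while their treatment field reads DMSO, and the treatment field was followed. JQ1 blocks the bromodomains of BET proteins, which read acetylated histones and support transcription. The study addressed how resistance to such drugs relates to loss of MAPKAPK2.

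The p38 kinases respond to stress and inflammatory signals. MAP2K3 and MAP2K6, also called MKK3 and MKK6, activate them by phosphorylation, and p38 alpha, the product of MAPK14, then activates MK2, the product of MAPKAPK2. MK2 and its close relative MK3, the product of MAPKAPK3, act on RNA-binding proteins that govern the stability of inflammatory mRNAs and on HSPB1, also called HSP27, a chaperone tied to actin dynamics. RNA levels, which were measured here, do not report the phosphorylation that carries the signal.

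Each library held 25316899 to 34594295 counts, and levels below are CPM, the counts of a gene per 1000000 counts of the scaled library, given as mean ± SD with n = 3 per group. Knockout JQ1 replicate 3 stood apart: its counts differed from those of its group partners by 27.9 and 29.5 times the sampling variance (chi-square per degree of freedom over genes), against 3.5 to 8.04 for the other replicate pairs. In that library 4 abundant noncoding RNAs took 14.6% of the counts, and the lowest share in any library was 9.42%. Calls of the pathway genes that moved without it are given both ways. Lists of other genes, neighbouring genes and shares of summed RNA were not recomputed without it. Of the melanocytic markers, SOX10 (389 to 687 CPM), MITF (25.6 to 44.1 CPM) and S100B were present in every library, while the pigment genes PMEL, MLANA, TYR, DCT and TYRP1 reached at most 1.45 CPM. The epithelial marker CDH1 had no reads in any library, EPCAM reached at most 0.0641 CPM and the leukocyte marker PTPRC at most 0.283 CPM. Nothing in the labels says that the 3 libraries of a group came from separate cultures, so the p-values measure only the spread between these libraries. Whether groups overlap is given below as a description, and the share of all genes without overlap was not computed.

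MAPKAPK2 RNA was strongly lower in the knockout, and with JQ1 the RNAs of MAPKAPK3 and HSPB1 fell in both genotypes. With JQ1 in wild type, edgeR's quasi-likelihood test (adjusted p under 0.05) called 3 of the 10 genes, MAPKAPK2 higher and MAPKAPK3 and HSPB1 lower, where 33.1% of all tested genes were called (16.9% higher and 16.2% lower). Without knockout JQ1 replicate 3 the wild-type count was 7, against 38% of all genes in that fit. MAP2K3, MAP2K6 and MAPK12 were called higher and MAPK11 lower in addition. That library is in neither group of the wild-type comparison and enters it only through the filter, scaling and model shared by all groups. With JQ1 in the knockout the test called 4, MAP2K3 higher and MAPK11, MAPKAPK3 and HSPB1 lower. Of all genes, 34.4% were called there (16.7% higher and 17.8% lower). Between genotypes in DMSO the edited gene MAPKAPK2 was the only one of the 10 called (7.92% of all genes, 4.44% lower), and between genotypes in JQ1 MAPKAPK2, MAPKAPK3 and MAP2K6 were called, all lower in the knockout (8.57% of all genes, 5.56% lower). No member had a JQ1 response that differed between genotypes by the interaction in edgeR (0.134% of all genes). Of all genes, 0.0323% had a higher and 0.101% a lower response in the knockout. In that test 3 members, MAPKAPK3, HSPB1 and MAP2K6, had an unadjusted p under 0.05, as did 1817 of the 21698 tested genes. The interaction count was also 0 in DESeq2 (1.09% of the genes it tested) and 1, HSPB1, without knockout JQ1 replicate 3 (0.395%). The median log2 fold change of the 10 genes was 0.06 with JQ1 in wild type and 0.04 in the knockout, beside -0.03 and -0.0035 over all genes. It was 0.0093 for knockout against wild type in DMSO and -0.12 in JQ1, beside -0.0049 and -0.0015 over all genes. The comparisons share groups, so their values stand side by side below and are not independent. In bulk RNA, fewer cells with a transcript and less of it per cell cannot be told apart.

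**Figure D1:**
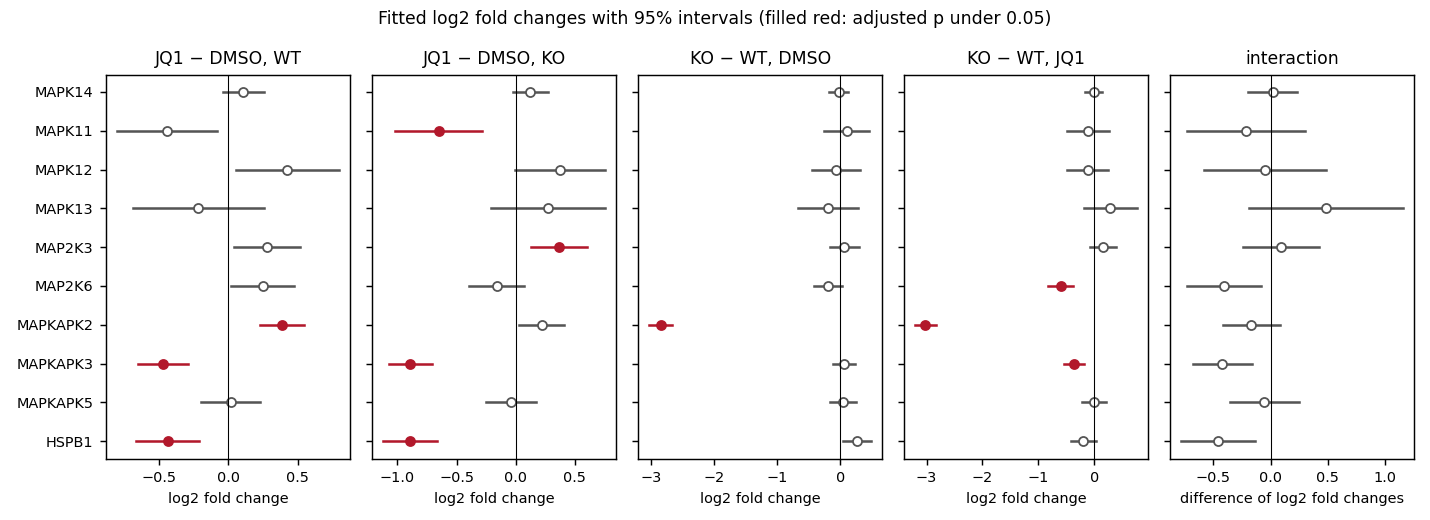
Fitted log2 fold changes of the 10 genes (rows) in the 5 comparisons (panels), with 95% intervals; filled red points have an adjusted p under 0.05. MAPKAPK2 stands at -2.85 and -3.02 in the genotype panels, and MAPKAPK3 and HSPB1 lie left of 0 in both JQ1 panels.

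**Figure D2:**
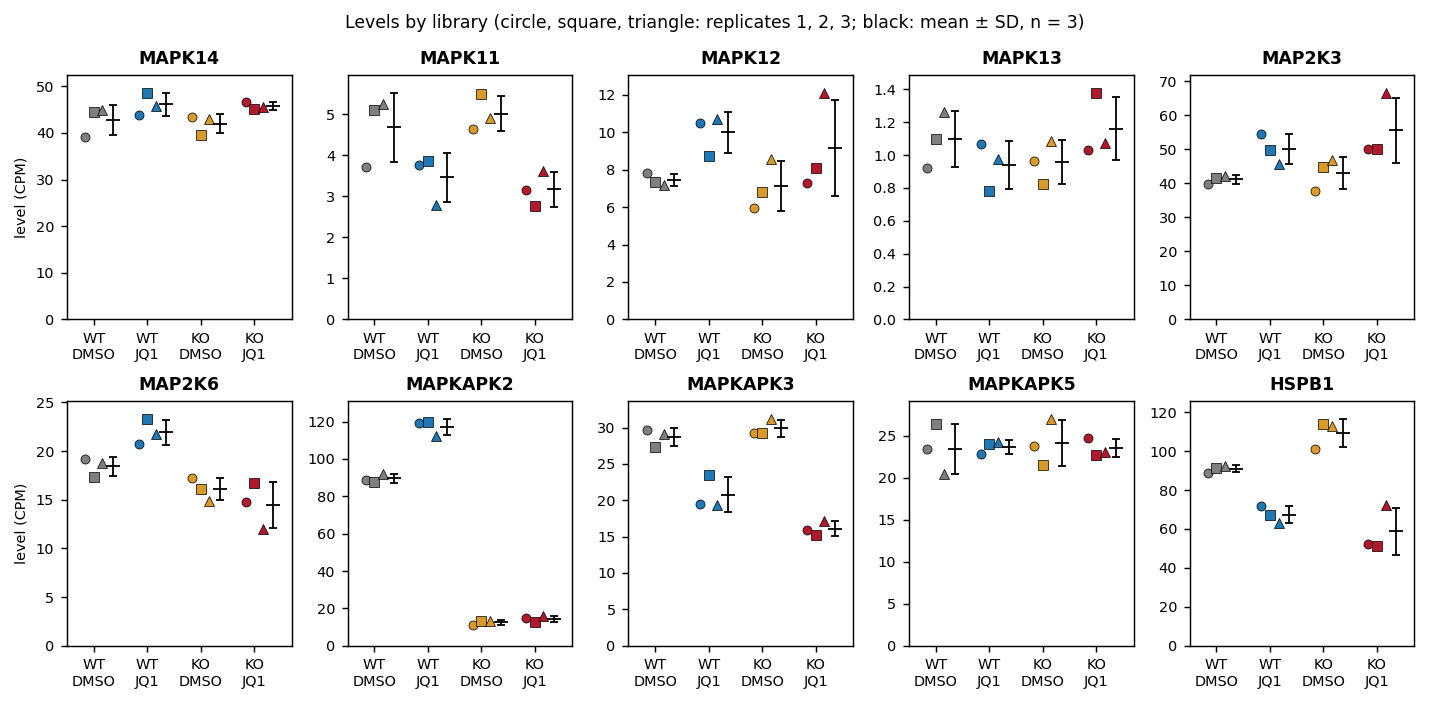
Level in CPM of each gene in each of the 12 libraries, by group, with the mean ± SD of 3 libraries in black; the vertical axes start at 0 and differ between panels. MAPKAPK2 sits at 11.1 to 15.7 CPM in the 6 knockout libraries and at 87.9 to 120 CPM in the 6 wild-type libraries.

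The activating kinases MAP2K3 and MAP2K6 both lie on chromosome 17, at chr17:21284672-21315240 and chr17:69414698-69553861 on the plus strand (GENCODE release 29, GRCh38). For MAP2K6, the 3 replicates in order stood at 19.2, 17.4 and 18.7 CPM in wild type with DMSO, 20.7, 23.3 and 21.7 with JQ1, 17.2, 16.1 and 14.9 in knockout with DMSO, and 14.7, 16.7 and 11.998 with JQ1. Each wild-type JQ1 library was above each wild-type DMSO library, while the knockout groups overlapped, and knockout libraries were below wild-type ones in both treatments. With JQ1 present, MAP2K6 in the knockout was at 66.0% ± 10.7 of wild type (log2 fold change -0.60, SE 0.11, adjusted p 0.00223 in edgeR). Of all 10 genes other than MAPKAPK2 itself, this was the genotype difference with the smallest adjusted p, and it was called in all 20 alternative analyses (adjusted p 3.31e-06 to 0.0242). It was -0.48 without knockout JQ1 replicate 3, the library with the lowest value. In DMSO the knockout stood at 87.3% ± 6.32 of wild type without passing (-0.20, adjusted p 0.345). The JQ1 response in wild type was 0.25 (adjusted p 0.0870, and 0.0208 without knockout JQ1 replicate 3, in edgeR). This response was called in 4 of the 20 alternative analyses, 1 of them with a library left out. In knockout it was -0.16 (adjusted p 0.293), and the difference of these responses was -0.41 (95% interval -0.73 to -0.08, unadjusted p 0.0174 and adjusted p 0.474 by edgeR).

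MAP2K3 stood at 39.8, 41.6 and 42.3 CPM in wild type with DMSO and at 54.6, 49.8 and 45.7 with JQ1. In the knockout it was 37.9, 44.7 and 46.9 CPM with DMSO and 50.1, 50.03 and 66.7 with JQ1. JQ1 libraries exceeded DMSO libraries without overlap in both genotypes, and knockout JQ1 replicate 3 was the highest of all 12. MAP2K3 rose with JQ1 in the knockout to 129% ± 22.2 of DMSO (0.37, SE 0.11, adjusted p 0.0174 in edgeR). That call was lost without knockout JQ1 replicate 3 (0.22, adjusted p 0.0663) and without knockout DMSO replicate 1 (0.28, adjusted p 0.0781). It was also lost with library totals (0.25, adjusted p 0.0762) and with only the groups compared (0.36, adjusted p 0.0563). In wild type the value was 0.28 (SE 0.11, adjusted p 0.0659), which passed without knockout DMSO replicate 1 (0.0440), without wild-type JQ1 replicate 3 (0.0490) and without knockout JQ1 replicate 3 (0.00878). With these 3, the wild-type rise was called in 6 of the 20 alternative analyses. Per kilobase of transcript, MAP2K3 made up 62.5% ± 1.75 of the summed RNA of these kinases in wild type with DMSO, 62.9% ± 2.93 in wild type with JQ1, 66.5% ± 4.07 in knockout with DMSO and 73.8% ± 6.003 in knockout with JQ1. Only the last group was above every wild-type library, at 71.7%, 69.1% and 80.6% in replicates 1, 2 and 3. The share depends on which transcript length is used.

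Among the p38 kinases, MAPK14, which encodes p38 alpha, the main activator of MK2, passed in no comparison. Its libraries stood at 39.1, 44.4 and 44.9 CPM in wild type with DMSO, 43.8, 48.6 and 45.9 with JQ1, 43.4, 39.6 and 43.1 in knockout with DMSO, and 46.7, 45.2 and 45.5 with JQ1. Wild-type JQ1 and DMSO libraries overlapped, as did the genotypes within each treatment, while knockout JQ1 libraries were above knockout DMSO libraries. In edgeR the 95% intervals placed the genotype difference between -0.18 and 0.12 in DMSO and between -0.16 and 0.14 in JQ1 on the log2 scale. For the JQ1 response they ran from -0.04 to 0.26 in wild type and from -0.02 to 0.27 in the knockout. MAPK14 was thus the p38 gene with the narrowest intervals.

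MAPK11, which encodes p38 beta, was lower with JQ1. It stood at 3.73, 5.10 and 5.25 CPM in wild type with DMSO, 3.77, 3.86 and 2.78 with JQ1, 4.65, 5.49 and 4.91 in knockout with DMSO, and 3.16, 2.76 and 3.61 with JQ1. The knockout groups did not overlap, and the wild-type groups did, through the first DMSO replicate. MAPK11 fell in the knockout to 63.3% ± 8.47 of DMSO (-0.65, SE 0.17, adjusted p 0.00815 in edgeR), a call kept in all 20 alternative analyses. In wild type the value was -0.44 (SE 0.17, adjusted p 0.0586), which passed without wild-type DMSO replicate 1 (-0.58, adjusted p 0.0183) or knockout JQ1 replicate 3 (0.0427). With these 2, the wild-type fall was called in 3 of the 20 alternative analyses. The interaction did not pass (-0.21, adjusted p 0.865 in edgeR).

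MAPK12, which encodes p38 gamma, stood at 7.84, 7.37 and 7.20 CPM in wild type with DMSO and at 10.5, 8.76 and 10.7 with JQ1, without overlap. In the knockout it was 5.93, 6.83 and 8.57 CPM with DMSO and 7.31, 8.07 and 12.1 with JQ1, with overlap and with the highest value again in knockout JQ1 replicate 3. The JQ1 values of 0.42 in wild type (SE 0.17, adjusted p 0.0760) and 0.38 in the knockout (SE 0.18, adjusted p 0.119) did not pass in edgeR. The wild-type value passed without knockout JQ1 replicate 3 (adjusted p 0.0139). The knockout value passed without knockout JQ1 replicate 1 (0.0389) or knockout DMSO replicate 3 (0.0464), and was 0.12 without knockout JQ1 replicate 3. Of the 20 alternative analyses, 3 called the wild-type rise, 1 of them with a library left out. The knockout rise was called in 3, with a library left out in 2 of these. MAPK12 and MAPK11 are neighbours on chromosome 22 (chr22:50245450-50261825 and chr22:50263713-50270767, minus strand), 1887 bases apart. The counting's use of strand is not stated in the sources used here, but both genes lie on the same strand and do not overlap in the annotation. MAPK13, which encodes p38 delta, had 21 to 46 counts per library (0.779 to 1.38 CPM), no comparison passed, and its intervals were wide, from -0.69 to 0.26 for JQ1 in wild type.

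Per kilobase of transcript, MAPK14 was the most abundant p38 mRNA, followed by MAPK12 and MAPK11, with MAPK13 lowest. In wild type with DMSO the levels were 31.1 ± 2.33, 4.61 ± 0.205, 1.93 ± 0.345 and 0.534 ± 0.0830 CPM per kilobase, using the median length of each gene's coding transcripts. MAPK14 was above MAPK11, and MAPK11 above MAPK13, whichever annotated transcript length was used. The order of MAPK14 and MAPK12 was not settled at the extremes of length (9.91 per kilobase for the longest MAPK14 transcript against 12.3 for the shortest MAPK12 transcript).

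MAPKAPK2, at chr1:206684944-206734283 on the plus strand, was the edited gene and was read first as a check of the labels. Its libraries stood at 88.8, 87.9 and 92.1 CPM in wild type with DMSO, 120, 120 and 112 with JQ1, 11.1, 13.2 and 13.0 in knockout with DMSO, and 14.8, 12.6 and 15.7 with JQ1. Every library labelled knockout was far below every wild-type library, and every wild-type JQ1 library was above every wild-type DMSO library. In DMSO the knockout libraries held 13.9% ± 1.29 of the wild-type RNA (log2 fold change -2.85, SE 0.09, adjusted p 3.60e-11 in edgeR) and 12.3% ± 1.37 in JQ1 (-3.02, SE 0.09, adjusted p 1.54e-11). The remaining RNA came from 311 to 497 counts per knockout library. Neither the guide nor the edited exon is given in the sources used here, so what this RNA could encode was not analysed.

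JQ1 raised MAPKAPK2 in wild type to 131% ± 4.81 of the DMSO level (0.39, SE 0.08, adjusted p 0.00109 in edgeR). In the knockout the response was 0.22 (SE 0.09, adjusted p 0.0724), and these groups overlapped. It passed without knockout JQ1 replicate 2 (0.31, adjusted p 0.0143). With this fit, the response in the knockout was called in 3 of the 20 alternative analyses. The interaction did not pass (-0.17, 95% interval -0.42 to 0.08, adjusted p 0.744 in edgeR), so no lower response of the residual transcript was shown. The rise in wild type was called in all 20 alternative analyses, between 0.26 and 0.42.

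The authors' normalized table divides each rounded count by a factor of its own for gene and library. For MAPKAPK2 this factor, relative to the median of its library, was 1.03 to 1.04 in the 6 wild-type libraries and 0.939 to 0.992 in the 6 knockout libraries. The groups did not overlap in either treatment (exact two-sided permutation p 0.1, the smallest that 3 against 3 libraries allow), and 8.57% of tested genes had a shift at least as large in DMSO. With these factors the fitted knockout difference in DMSO was -2.75.

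MAPKAPK3, the closest relative of MAPKAPK2, fell with JQ1 in both genotypes and was not called between genotypes in DMSO. Its libraries stood at 29.6, 27.3 and 29.1 CPM in wild type with DMSO, 19.5, 23.5 and 19.3 with JQ1, 29.2, 29.2 and 31.2 in knockout with DMSO, and 15.9, 15.2 and 17.2 with JQ1. JQ1 libraries were below DMSO libraries without overlap in both genotypes, and the knockout JQ1 libraries were the lowest of all 12. JQ1 lowered MAPKAPK3 to 72.5% ± 8.19 of DMSO in wild type (-0.47, SE 0.08, adjusted p 5.86e-04 in edgeR) and to 53.9% ± 3.36 in the knockout (-0.89, SE 0.09, adjusted p 1.78e-06). Both falls were called in all 20 alternative analyses. In DMSO the genotypes differed by 0.06, with a 95% interval of -0.12 to 0.24, so a rise beyond 0.24 on the log2 scale lay outside the interval.

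With JQ1 present, MAPKAPK3 in the knockout was at 77.5% ± 4.83 of wild type (-0.36, SE 0.09, adjusted p 0.0162 in edgeR). That call was lost without wild-type JQ1 replicate 2 (-0.27, adjusted p 0.0905), and likewise without knockout JQ1 replicate 1 (0.0511) and without knockout JQ1 replicate 2 (0.0623), and with a fit of only the groups compared (0.0925). The interaction was -0.42 (95% interval -0.68 to -0.17, unadjusted p 0.00325) and did not pass after adjustment over all genes in edgeR (adjusted p 0.279).

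Per kilobase, MAPKAPK2 exceeded MAPKAPK3 in wild type and MAPKAPK3 exceeded MAPKAPK2 in the knockout. MAPKAPK2 stood at 34.9 ± 0.857 CPM per kilobase and MAPKAPK3 at 11.2 ± 0.484 in wild type with DMSO, and at 4.84 ± 0.449 and 11.7 ± 0.442 in knockout with DMSO. MAPKAPK3 thus made up 24.3% ± 0.706 of the sum in wild type with DMSO, 15.1% ± 1.23 in wild type with JQ1, 70.7% ± 1.76 in knockout with DMSO and 52.9% ± 1.59 in knockout with JQ1. No library of one group reached the share of another group. The sum of both mRNAs was 46.1 ± 1.17 CPM per kilobase in wild type with DMSO and 53.8 ± 2.32 with JQ1, and in the knockout 16.5 ± 0.761 with DMSO and 11.9 ± 0.998 with JQ1. In wild type each JQ1 library was above each DMSO library, and in the knockout each JQ1 library was below each DMSO library. Lengths of the longest transcripts gave the same order of groups (39.9, 46.5, 14.2 and 10.3). In knockout with JQ1 the order of the 2 mRNAs held with median and with longest lengths (6.28 against 5.61 and 5.39 against 4.86 CPM per kilobase), and mixed lengths could turn it. These sums follow from the changes of the single genes above and were not tested.

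**Figure D3:**
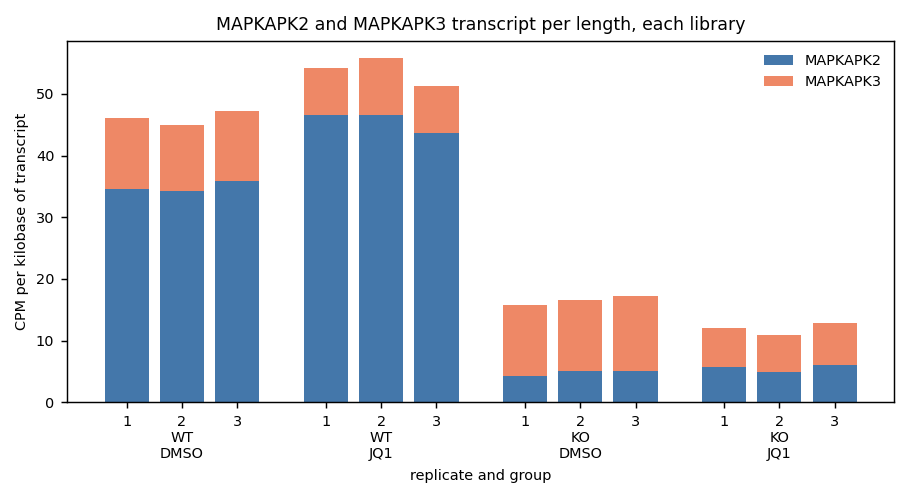
Stacked levels of MAPKAPK2 (blue) and MAPKAPK3 (orange) in CPM per kilobase of transcript, 1 bar for each of the 12 libraries. The summed height is 44.9 to 47.2 in wild type with DMSO, 51.3 to 55.8 with JQ1, 15.7 to 17.2 in knockout with DMSO and 10.9 to 12.8 with JQ1, and orange is the larger part in each knockout bar.

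MAPKAPK5, which encodes MK5, a more distant relative that atypical MAP kinases also activate, did not pass in any comparison. Its libraries stood at 23.4, 26.4 and 20.4 CPM in wild type with DMSO, 22.8, 24.0 and 24.2 with JQ1, 23.8, 21.6 and 27.0 in knockout with DMSO, and 24.7, 22.7 and 23.1 with JQ1. All groups overlapped, and the 95% intervals of the 4 differences lay between -0.25 and 0.26 on the log2 scale. The antisense gene MAPKAPK5-AS1 had 5.56 to 12.01 CPM in the same libraries, and without a stated use of strand the reads of the pair cannot be assigned with certainty.

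HSPB1, at chr7:76302544-76304295 on the plus strand, stood at 127 ± 2.50 CPM per kilobase in wild type with DMSO, the highest of the 10 mRNAs by median transcript length. At the extremes of length the order with MAP2K3 was not settled (100.1 for the longest HSPB1 transcript against 117.5 for the shortest MAP2K3 transcript). Its libraries stood at 89.0, 91.5 and 92.5 CPM in wild type with DMSO, 71.9, 67.0 and 63.2 with JQ1, 101, 114 and 113 in knockout with DMSO, and 52.5, 51.3 and 72.4 with JQ1. JQ1 libraries were below DMSO libraries without overlap in both genotypes, and in DMSO every knockout library was above every wild-type library. JQ1 lowered HSPB1 to 74.0% ± 4.81 of DMSO in wild type (-0.43, SE 0.11, adjusted p 0.00525 in edgeR) and to 53.7% ± 10.8 in the knockout (-0.89, SE 0.11, adjusted p 1.32e-05). Both falls were called in all 20 alternative analyses. Reads of the pseudogenes HSPB1P1 and HSPB1P2 were at most 3 and 12 counts in any library, beside 1264 to 3366 for HSPB1.

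The calls of HSPB1 between genotypes moved with knockout JQ1 replicate 3 and with the fit. With all libraries, the knockout with DMSO was at 120% ± 7.99 of wild type (0.26, SE 0.10, adjusted p 0.165 in edgeR), the knockout with JQ1 differed from wild type by -0.20 (adjusted p 0.332), and the interaction was -0.46 (95% interval -0.78 to -0.14, unadjusted p 0.00809 and adjusted p 0.391). Without that library, in which HSPB1 was 72.4 CPM against 52.5 and 51.3 in its partners, all of these passed: HSPB1 was 0.26 in DMSO (adjusted p 0.00588), -0.38 in JQ1 (adjusted p 0.00174) and -0.64 for the interaction (adjusted p 0.00536). Leaving out any other single library gave an interaction of -0.52 to -0.37, with adjusted p from 0.389 to 0.620. With all 12 libraries, the interaction passed with no low-count filter (-0.48, adjusted p 0.0157), and the DMSO difference passed with no filter (0.0293) and with only the groups compared (0.00660). What sets that library apart was not tested.

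MAPKAPK3 and HSPB1, the members that fell with JQ1 in both genotypes, are shown with the stretch before a start site that their RefSeq promoter windows (GRCh38.p14) hold upstream of any GENCODE exon. Capitals mark matches, on either strand, to GGGCGG (a GC box) or GAANNTTC (a pair of heat shock units, as heat shock factor elements are built from repeats of that unit). The MAPKAPK3 stretch, chr3:50616901-50617130 on the plus strand, ends 21 bases before the second of its start sites and lies within an intron of 1 longer annotated transcript of the gene. The HSPB1 stretch, chr7:76302423-76302543 on the plus strand, ends 130 bases before the RefSeq start.
MAPKAPK3: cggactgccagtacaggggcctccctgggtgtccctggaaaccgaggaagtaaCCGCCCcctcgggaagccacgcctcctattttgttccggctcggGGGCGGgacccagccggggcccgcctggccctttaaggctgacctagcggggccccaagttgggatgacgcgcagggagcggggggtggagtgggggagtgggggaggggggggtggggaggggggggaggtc
HSPB1: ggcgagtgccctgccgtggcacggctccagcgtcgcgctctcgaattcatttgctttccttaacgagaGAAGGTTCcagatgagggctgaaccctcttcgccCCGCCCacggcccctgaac
In these stretches GC boxes begin 197 and 153 bases before the MAPKAPK3 start and 148 bases before the HSPB1 start. The GAANNTTC match begins 182 bases before the HSPB1 start. Outside the stretch, HSPB1 has a further GC box 105 bases before its start. CACGTG begins 21 bases before the same MAPKAPK3 start, so that only its first base is in the stretch. The other MAPKAPK3 start, not shown, has GC boxes 65 and 47 bases before it. Over the whole 250 bases before each start, GGGCGG was found in 10 of the 12 windows of the 9 members with an entry, and in 42.6% of all 35116 RefSeq windows. GAANNTTC was found in HSPB1 alone among them and in 5.78% of all windows. The other motifs searched were CACGTG (E box; 2 windows, 6.34% of all), TATAAA (1 window, 10.7% of all) and CCAAT (2 windows, 32.0% of all), and no matches of different motifs overlapped. The match is a description of letters, and binding was not measured.

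The genes around the pathway, from 5 lists, moved in both directions with JQ1. In wild type 7 of 20 tested upstream kinases, 13 of 21 other substrates, 4 of 9 phosphatases, 7 of 12 other MAP kinases and 2 of 4 small heat shock proteins were called, beside 33.1% of all genes. In the knockout the counts in the same order were 9, 13, 4, 7 and 2, beside 34.4% of all genes. Between genotypes they were 2, 3, 0, 0 and 1 in DMSO, beside 7.92% of all genes, and 4, 3, 1, 1 and 1 in JQ1, beside 8.57%. Of the 20 upstream kinases and adaptors of p38, 4 rose and 3 fell with JQ1 in wild type, with a median log2 fold change of 0.04. MAP3K3, a kinase that acts on MAP2Ks, went from 29.004 ± 1.46 to 52.5 ± 3.24 CPM (0.86, SE 0.08, adjusted p 1.68e-06 in edgeR). GADD45B, a stress protein that activates MAP3K4, went from 4.31 ± 0.386 to 10.2 ± 0.524 CPM (1.24, SE 0.12, adjusted p 1.71e-06). The other calls, named after their values were seen, were TAOK2 (0.59) and MAP3K4 (0.24) among the higher and MAP3K5 (-0.65), MAP3K20 (-0.39) and TAB3 (-0.22) among the lower. In the knockout 3 rose and 6 fell, and MAP3K3 (0.90) and GADD45B (1.23) rose there too. Between genotypes in DMSO, TAB3, an adaptor of the kinase TAK1, was higher in the knockout (77.1 ± 3.42 against 108 ± 5.27 CPM, 0.48, adjusted p 8.96e-04 in edgeR). GADD45B was lower there (4.31 ± 0.386 against 2.99 ± 0.283 CPM, -0.53, adjusted p 0.0175). In JQ1 the 4 called were lower in the knockout, namely GADD45B (-0.54), TAB2 (-0.33), MAP3K1 (-0.26) and MAP3K4 (-0.25).

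Of 21 tested other substrates of p38 or MK2, 7 rose and 6 fell with JQ1 in wild type (median 0.16), and 8 rose and 5 fell in the knockout (median 0.08). RIPK1, a cell death kinase that MK2 phosphorylates, went from 21.0 ± 1.09 to 34.1 ± 1.68 CPM in wild type (0.70, SE 0.08, adjusted p 9.72e-06 in edgeR). MEF2C, a transcription factor that p38 activates, went from 40.4 ± 2.78 to 25.6 ± 2.66 CPM (-0.66, SE 0.11, adjusted p 4.52e-04). Between genotypes in DMSO the substrates called, 3 in number, were lower in the knockout: MEF2C, at 25.1 ± 1.84 CPM (-0.69, SE 0.12, adjusted p 0.00139), MEF2A, its relative, at 52.8 ± 3.01 against 72.1 ± 3.64 CPM (-0.45, SE 0.09, adjusted p 0.00388), and RPS6KA5, a histone kinase (-0.28, adjusted p 0.0468). MEF2C (-0.69) and MEF2A (-0.36) were lower in JQ1 as well, together with DDIT3, a stress transcription factor that p38 phosphorylates (-0.75). The median of this list was -0.03 in DMSO and -0.13 in JQ1, beside medians near 0 over all genes.

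Of 9 tested phosphatases that act on p38, 1 rose and 3 fell with JQ1 in each genotype. DUSP16 went from 26.5 ± 1.89 to 16.7 ± 1.15 CPM in wild type (-0.67, SE 0.08, adjusted p 1.63e-05 in edgeR) and fell by 0.75 in the knockout. PTPRR, a tyrosine phosphatase, was low throughout, at 1.21 ± 0.298 CPM in wild type with DMSO and 0.1004 ± 0.104 with JQ1 (adjusted p 7.39e-05). DUSP2, which fell in both genotypes (-0.94 and -1.42), DUSP10, which rose in wild type (0.22), and DUSP1, which rose in the knockout (0.37), were named after their values were seen. None was called between genotypes in DMSO by edgeR. There 1 of the 9 had an unadjusted p under 0.05, as did 4274 of the 21698 tested genes. DUSP10 was lower in the knockout with JQ1 (-0.45, adjusted p 5.23e-04).

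Of 12 tested other MAP kinases and their MAP2Ks, 5 rose and 2 fell with JQ1 in each genotype, with medians of 0.25 and 0.20. MAP2K1, which activates ERK, went from 70.3 ± 2.44 to 96.3 ± 2.37 CPM in wild type (0.45, SE 0.06, adjusted p 2.69e-05 in edgeR), and MAPK3, which encodes ERK1, from 51.4 ± 2.13 to 37.2 ± 2.97 CPM (-0.47, SE 0.07, adjusted p 1.74e-04). Between genotypes no gene of this list was called in DMSO by edgeR. There 0 had an unadjusted p under 0.05, beside 4274 of the 21698 tested genes. MAPK3 alone was called with JQ1, lower in the knockout (-0.30, adjusted p 0.0217). Of the 8 other small heat shock proteins, relatives of HSPB1, only 4 passed the low-count filter, and 2 of them fell with JQ1. HSPB8 went from 1.92 ± 0.111 to 0.713 ± 0.140 CPM in wild type (-1.41, SE 0.22, adjusted p 1.57e-04 in edgeR), and CRYAB from 0.864 ± 0.159 to 0.162 ± 0.0521 CPM (adjusted p 9.02e-04). HSPB8 was also lower in the knockout with DMSO, at 0.441 ± 0.0822 CPM (-2.12, SE 0.23, adjusted p 3.77e-05), where HSPB1 stood above wild type without passing. No gene of the 5 lists was called in the interaction by edgeR. An unadjusted p under 0.05 there was found for 9 of their 66 tested genes and for 1817 of all 21698. No other tool was run on the lists, and no library was left out for them.

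**Figure D4:**
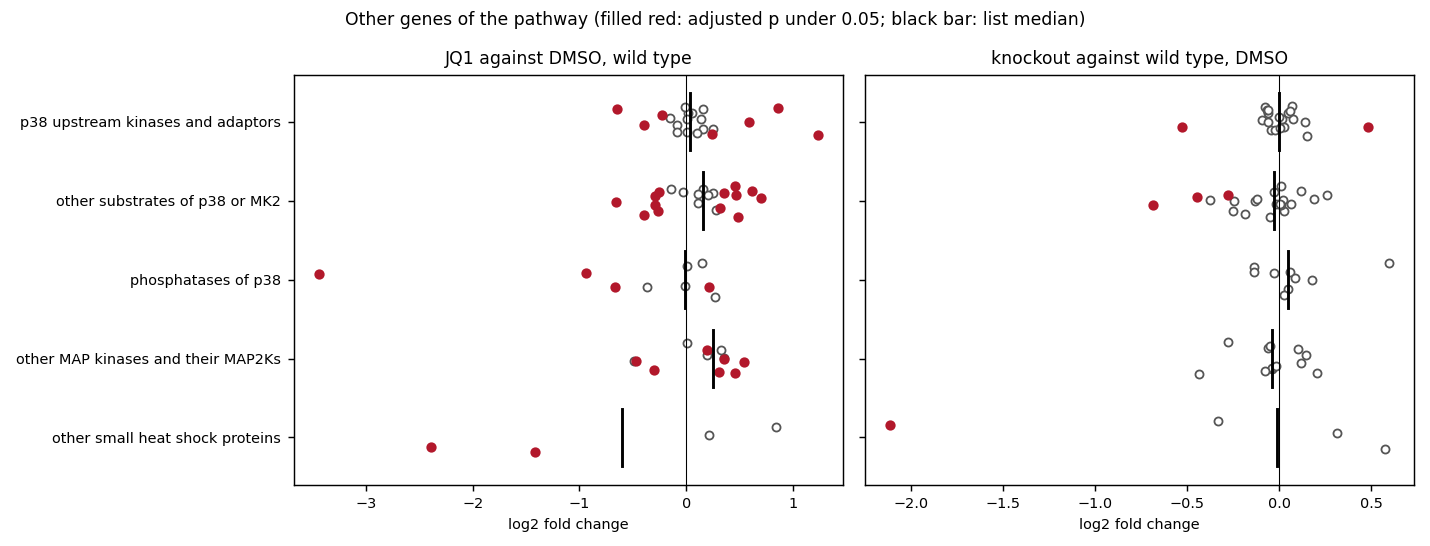
Fitted log2 fold changes of the tested genes of the 5 lists (rows; 1 point per gene; filled red has an adjusted p under 0.05; black bars are list medians), for JQ1 against DMSO in wild type and for knockout against wild type in DMSO. With JQ1 the calls lie on both sides of 0 in 4 of the 5 lists, and between genotypes at most 3 genes of a list are called.

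Genes whose pattern over the 12 libraries was most like that of the 3 members with the widest range of group means were found among 11250 genes of at least 5 CPM, by the root mean square difference of centred log2 CPM. For MAPKAPK2 these were LAMP2, a lysosomal membrane protein (difference 0.13), RNF128, a ubiquitin ligase (0.29), and TGFBI, an extracellular matrix protein (0.38), where MAPKAPK2 itself varied by 1.48. LAMP2 stood at 71.1, 86.4, 10.1 and 9.93 CPM in wild type with DMSO, wild type with JQ1, knockout with DMSO and knockout with JQ1. Unlike MAPKAPK2, it is not the edited gene, and it was as low in the knockout as MAPKAPK2 was. For MAPKAPK3, the nearest were TRIB3, a pseudokinase of the stress response (0.07), MAPK3 (0.08) and ANKRD34A (0.08), and for HSPB1 they included LINC02381 (0.09) and YPEL3 (0.10). TRIB3 stood at 34.8, 26.3, 36.9 and 20.4 CPM in the same order of groups. These likenesses describe the 12 libraries, which share their groups, and carry no test.

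The 5 tested genes on either side of each member were read for knockout against wild type. Of all tested genes, 7.92% were called in DMSO and 8.57% in JQ1. Around MAPKAPK2 the median log2 fold change of 10 neighbours was -0.24 in DMSO, with 1 called higher and 2 lower, and -0.51 in JQ1, with none higher and 2 lower. Those called in DMSO, named after their values were seen, were IL24 (-2.06) and FCMR (-1.89), both lower, and EIF2D (0.25). Around MAP2K6 the medians were -0.31 and -0.30, with none higher and 2 lower in DMSO, ABCA8 (-4.45) and ABCA6 (-0.94), and 1 higher, KCNJ2 (0.59), and 2 lower, ABCA8 (-5.41) and AC002546.1 (-0.69), in JQ1. MAPK14 had a median of -0.23 in DMSO as well, and -0.02 in JQ1, with no neighbour called in either. Around MAPKAPK3 (0.03 and 0.0097) and HSPB1 (0.04 and -0.0046) the medians were near 0. For the remaining members they ran from -0.10 to 0.14 over both treatments.

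Markers of other cell types moved with some of these results. The summed level of 3 fibroblast markers, mostly PDGFRB, ran from 10.8 to 12.3 CPM in wild type with DMSO, 3.88 to 4.84 with JQ1, 8.27 to 8.81 in knockout with DMSO and 2.56 to 2.92 with JQ1, so that JQ1 groups lay below DMSO groups as they did for MAPKAPK3 and HSPB1. COL1A2 was at most 0.142 CPM in any library. The summed melanocytic markers, mostly SOX10, ran from 501 to 516 CPM, 587 to 677, 460.0 to 535 and 560.3 to 766 in the same order of groups. The sum of 3 epithelial markers, nearly all KRT8, was 14.6 to 16.4 CPM in knockout with JQ1 and 16.1 to 17.9 in the other groups. Sums of 4 leukocyte markers (0.852 to 1.52 CPM) overlapped between all groups. The sum of 2 endothelial markers was 1.07 to 1.35 CPM in wild type with DMSO and 0.557 to 0.911 with JQ1, and 0.545 to 1.45 in the knockout groups. The part of these markers in the results was not tested.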

How the data were processed

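RNA was measured in 12 A375 libraries, 3 per group. The authors deposited estimated counts per gene symbol, which need not be whole, and a normalized signal, which was the rounded count divided by a factor for gene and library. Per the submitters' processing notes, Trim Galore, cutadapt, FastQC, MultiQC, kallisto, DESeq2 and GRCh38.p10 were used, with no roles or versions given. Libraries were rRNA-depleted and directional, per the labels' protocols, and whether counting used the strand is not given in the sources used here.

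The counts were rounded, genes were filtered with filterByExpr over the 4 groups, and libraries were scaled by TMM (edgeR 4.0.16, limma 3.58.1, R 4.3.3). One quasi-likelihood model with a term per group gave 5 contrasts, which were the JQ1 effect per genotype, the knockout effect per treatment, and their interaction. Benjamini-Hochberg adjustment ran over 21698 genes, with a threshold of 0.05. An SE is the size of a log2 fold change over the root of its F statistic, and 95% intervals used the model's degrees of freedom. The test was planned for counts and was run on rounded estimated counts. The fit was also run on counts simulated with the same spread for all genes and changes only in wild type with JQ1. Only JQ1 against DMSO in wild type was read there, so that run does not bear on the other comparisons. Places, transcript lengths and gene order came from GENCODE release 29 (GRCh38), matched by symbol.

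All 10 members were named in every comparison. From each list up to 2 called genes with the smallest adjusted p were named for JQ1 in wild type and for knockout in DMSO; others are marked as named after their values were seen, or follow from a count of 5 or fewer. The members and lists were chosen with earlier results of these data known. Same-numbered replicates of different groups did not deviate together, so no pairing was used. Alternatives were other scalings, namely the RLE median-ratio method of edgeR, library totals or the authors' factors. Other fits used no low-count filter, DESeq2 1.42.0, limma on log2 of the authors' signal plus 1, only the groups compared or a replicate block. Further alternatives were an adjusted p of 0.01 and each library left out.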

Additional observations from a re-analysis of the deposited data

How the results depend on the processing

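The replicate block (replicate number as a term) gave the same count of members called in each comparison, 3, 4, 1, 3 and 0, and changed no call. The shares of all genes called with it were 31.3%, 32.9%, 6.85%, 7.23% and 0.0968%. The count for JQ1 in wild type was 3 and became 5 with no low-count filter and 6 with only the groups compared. The share of all genes called was 33.1%, 17.3% and 41.7% in these fits. With 1 library left out the count ran from 3 to 7, and the share from 25.4% to 38%. For knockout against wild type in DMSO the count of 1 (7.92% of all genes) became 2 with no filter (4.62%) and 2 with only the groups compared (12.7%). It ran from 1 to 2 with libraries left out (4.83% to 11.9% of all genes). For the interaction 0 (0.134% of all genes) became 1 with no filter (HSPB1, -0.48, adjusted p 0.0157, beside 0.557%). With libraries left out it ran from 0 to 1 (0.0354% to 0.395% of all genes). The cause of these moves was not tested.

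Some log2 fold changes near 0, none of them called, changed sign. With library totals MAPK14 was -0.022 and MAPKAPK5 -0.11 for JQ1 in wild type, and MAPKAPK5 was -0.0021 for knockout in DMSO. That scaling moved the median of all genes to -0.16 for JQ1 in wild type and -0.12 in the knockout, and relative to it both JQ1 values stayed positive. For MAPK14, knockout in DMSO was 0.0034 with the authors' factors and 0.0043 in limma, and the interaction was -0.0067, -0.0056 and, in DESeq2, -0.0024. With 1 library left out, MAPKAPK5 ran from -0.069 to 0.11 for JQ1 in wild type and from -0.12 to 0.056 in the knockout. For knockout in DMSO the ranges were -0.036 to 0.20 for MAPK11, -0.078 to 0.031 for MAPK14, -0.037 to 0.15 for MAPKAPK5 and -0.22 to 0.054 for MAPK12. In JQ1 they were -0.046 to 0.031 for MAPK14, -0.046 to 0.015 for MAPKAPK5 and -0.38 to 0.019 for MAPK12. For the interaction they were -0.034 to 0.074 for MAPK14, -0.15 to 0.034 for MAPKAPK5, -0.31 to 0.11 for MAPK12 and -0.063 to 0.16 for MAP2K3. The cause was not tested. Depth limits MAPK13 most, at 21 to 46 counts per library. The transcript length, an alternative chosen after seeing the data, moves levels per kilobase but no comparison of 1 gene between groups.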
